A study of Mus musculus with 6 samples.

Results

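The 42 genes of the type I interferon response described here were measured in peritoneal macrophages sorted by activity of the p16 locus. They were chosen by name, as interferon-stimulated effectors, sensors of nucleic acids, the receptor, and transcription factors of the STAT and IRF families, and 42 of the 54532 genes in the deposited table carry these names, each once. The samples were F4/80+ cells lavaged from the peritoneal cavity of C57BL/6 mice that carried p16-Cre and Rosa26-mTmG and were 12 months old. Both fractions came from this one genotype and age, with no treatment named in the labels. The p16High fraction (3 libraries) held EGFP-positive cells and the p16Low fraction (3 libraries) held tdTomato-positive cells, after bead selection and flow sorting. The Rosa26-mTmG allele switches its colour for good once Cre has cut it, so that EGFP marks a cell in which the p16 promoter has driven Cre at some time, or in its ancestors, and not its present p16 level. Neither separate mice nor pools are named in the labels for the 3 libraries of each fraction, and p-values thus measure the spread between libraries, which may be technical.

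Type I interferons act on a receptor of the subunits IFNAR1 and IFNAR2. The kinases bound to it phosphorylate STAT2, which acts with IRF9 in a complex that binds the interferon-stimulated response element (ISRE) before their target genes. Those genes encode antiviral effectors, sensors of viral RNA and DNA, and IRF7, which raises interferon production further. Resident macrophages keep part of this program at a low tonic level in the absence of infection.

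Values are FPKM, that is, reads scaled to transcript length and to the library total. Library totals worked back from the table were 16.52 to 19.57 M reads in p16High and 18.46 to 20.87 M in p16Low, and the 42 members took 0.156% to 0.160% of the reads in p16High against 0.147% to 0.148% in p16Low. One library stood apart: on the first principal component of all tested genes, which held 55.6% of the variance, p16Low replicate 2 lay at 48.87 and the other 5 between -15.89 and -4.70. Its mitochondrial share was 1.08%, against 0.545% to 0.684% in the other 5. The fold changes of tested members are therefore given with and without it. The fit without it holds p16Low replicates 1 and 3 alone in that fraction. Cdkn2a, the gene of p16, averaged 6.78 ± 1.2 in p16High against 1.09 ± 0.559 FPKM in p16Low (SD, n = 3 each; adjusted p = 0.0092 by limma, and 0.000437 without p16Low replicate 2), in the direction of the labels. Macrophage genes were abundant in both fractions: Adgre1, the gene of F4/80, averaged 2591 ± 163 in p16High against 1978.5 ± 644 FPKM in p16Low (adjusted p = 0.741, and 0.427 without that library). Of 8 macrophage markers, 6 were higher in p16High by fold change with all libraries and 4 without that library. Only Cd68 was called, and only without that library (adjusted p = 0.0318 by limma), where 2.76% of all tested genes were. With all libraries Cd68 averaged 1167 ± 47.7 in p16High against 981 ± 32.8 FPKM in p16Low. Lyz2, the most abundant marker, averaged 75032 ± 734 in p16High against 82291 ± 2610 FPKM in p16Low.

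The interferon ligands had between 0 and 2 reads in a library. Of 20 genes of type I and III interferons in the table, 19 were at 0 in all 6 libraries, and Ifnk had 1, 0 and 0 reads in p16High and 1, 1 and 2 reads in p16Low. Ifng was at 0 in all 6. A count of 0 at these depths allows up to 3 reads, or 0.144 to 0.182 reads in each M, and reads shared by the near-identical Ifna copies may have been lost in the authors' counting. A gene listed at 0 in this table is not thereby shown to be silent: Trex1, the gene of a DNA exonuclease widely expressed in macrophages, was listed at 0 in all 6 libraries, and so was S100a9, while S100a8, the gene of its partner protein, averaged 28.2 ± 5.15 in p16High against 36.0 ± 12.0 FPKM in p16Low. Of 6 markers of plasmacytoid dendritic cells, a main source of interferon, Siglech and Klk1 were listed at 0 throughout, Pacsin1, Ccr9 and Cox6a2 stood at 0 to 0.314 FPKM, and Tcf4, which other cells also express, averaged 21.4 ± 2.23 in p16High against 21.9 ± 0.959 FPKM in p16Low.

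Promoter sequences of members are shown because the ISRE is where the signal reaches the genes. In RefSeq promoters (GRCm38.p6), 31 of the 42 members had an entry, and the 250 bases before each start were searched on both strands for the ISRE core, taken as GAAA, any 2 bases and GAAA (on the printed strand a match in reverse reads TTTC, any 2 bases and TTTC). It was found in 11 of the 31 members (35.5%) and in 3.46% of all 27025 genes with a promoter, or 2.98% of the 32851 promoters taken singly. The 11 were Stat2, Ddx60, Ifit1, Ifit3, Ifit3b, Isg15, Oas1a, Oas3, Rsad2, Bst2 and Trim30a. The stretches printed here run 5′ to 3′ on the strand of the gene, and capitals mark the match. In Isg15 and Bst2 several matches overlap into one capital run. Ifit1 and Ifit3 each have a pair of separate matches, and Ifit3b, the close copy of Ifit3, has the same letters as Ifit3 over all 124 bases.
Isg15 (chr4:156200835-156200936, minus strand): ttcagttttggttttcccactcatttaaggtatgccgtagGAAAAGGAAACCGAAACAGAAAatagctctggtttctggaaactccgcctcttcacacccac
Ifit1 (chr19:34640745-34640853, plus strand): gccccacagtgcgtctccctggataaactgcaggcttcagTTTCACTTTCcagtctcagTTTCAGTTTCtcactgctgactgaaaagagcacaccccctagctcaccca
Ifit3 (chr19:34583333-34583456, plus strand): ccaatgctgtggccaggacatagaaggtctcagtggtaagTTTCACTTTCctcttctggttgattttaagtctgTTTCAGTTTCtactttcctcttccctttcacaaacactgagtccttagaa
Bst2 (chr8:71537547-71537642, minus strand): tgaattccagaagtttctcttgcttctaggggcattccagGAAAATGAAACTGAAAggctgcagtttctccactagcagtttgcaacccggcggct
Rsad2 (chr12:26456523-26456612, minus strand): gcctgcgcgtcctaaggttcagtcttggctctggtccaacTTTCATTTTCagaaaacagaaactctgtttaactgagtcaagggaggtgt

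The promoters of Irf7 and Oasl1, whose expression is described next, held no match to these letters in that window. The 90 bases before their RefSeq starts are printed for comparison, all in lower case. The RefSeq start of Irf7 lies inside the gene as the deposited table places it, and 57 of its 90 bases fall within that gene.
Irf7 (chr7:141266425-141266514, minus strand): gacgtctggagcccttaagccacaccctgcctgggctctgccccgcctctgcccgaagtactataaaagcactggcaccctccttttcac
Oasl1 (chr5:114923150-114923239, plus strand): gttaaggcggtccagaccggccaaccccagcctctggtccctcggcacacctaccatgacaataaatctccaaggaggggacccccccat
Among tested members with a RefSeq entry, 9 had the ISRE core, with a median log2 fold change of 0.04 (0.05 without p16Low replicate 2). The 19 without a match had a median of 0.27 (0.15 without that library). Only these exact letters in that window were searched, so a member without a match is not shown to lack an ISRE. Whether the core bears on the fold changes was not tested. Fold changes are p16High minus p16Low on log2(FPKM + 1) throughout.

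The members with the smallest p were Oasl1, Irf7 and Rsad2, higher in p16High, and Ifi27l2a, lower in p16High. Genes with at least 1 FPKM in 3 or more libraries were tested, 38 of the 42 members among 10895 genes, and 35 of the 38 reached that level in all 6 libraries and the other 3 in 5. With all 6 libraries none of the 38 passed an adjusted p of 0.05 in limma, where 0.89% of all tested genes did, and limma-voom on the recovered reads called none either, where it called 0.808% of all tested genes. At an unadjusted p under 0.05 there were 4, these same 4 genes, where 7.22% of all tested genes passed, and limma-voom also gave 4, where it gave 6.87%. Without p16Low replicate 2, 3 of the 38 passed (Irf7 and Oasl1 rose in p16High and Ifi27l2a fell), where 2.76% of all tested genes did. Without any one of the other 5 libraries none passed.

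Irf7 lies at chr7:141262706-141266481 on the minus strand (GRCm38) and encodes the IRF that is itself induced by interferon. It stood at 54.5, 55.7 and 50.6 FPKM in p16High against 34.0, 25.3 and 40.5 FPKM in p16Low, from 1112 to 1450 reads in p16High and 703 to 1084 in p16Low. All p16High libraries lay above all p16Low libraries, and p16Low replicate 2 was the lowest. The means were 53.6 ± 2.66 FPKM in p16High and 33.3 ± 7.59 in p16Low (SD, n = 3 each), 1.61-fold apart, and the log2 fold change was 0.70 ± 0.18 (SE), with an adjusted p of 0.195. Without p16Low replicate 2 Irf7 was 1.44-fold higher in p16High, with a log2 fold change of 0.52 ± 0.10 (SE) and an adjusted p of 0.011, and over all alternatives its adjusted p ran from 0.011 to 0.758.

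Oasl1 (chr5:114923240-114937915, plus strand) encodes an OAS-like protein without 2′-5′ oligoadenylate synthetase activity that in mice restrains translation of Irf7 mRNA. Its levels were low, at 5.74, 4.65 and 5.81 FPKM in p16High against 3.01, 2.42 and 1.00 FPKM in p16Low, or 108 to 129 reads in p16High and 24 to 66 in p16Low. The groups did not overlap, and here p16Low replicate 3 was the lowest library. Oasl1 was 2.52-fold higher in p16High by the ratio of means, with a log2 fold change of 1.08 ± 0.27 (SE) and an adjusted p of 0.163. Without p16Low replicate 2 the ratio was 2.69 and the log2 fold change 1.17 (SE 0.26; adjusted p = 0.0255, with a range over the alternatives of 0.0255 to 0.55). That fit rests in p16Low on replicates 1 and 3 alone, at 66 and 24 reads.

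Rsad2 (chr12:26442746-26456452, minus strand) encodes viperin, which makes a chain-terminating nucleotide. It was at 3.07, 4.42 and 3.42 FPKM in p16High against 2.15, 1.95 and 1.70 FPKM in p16Low. The groups did not overlap, and p16Low replicate 2 lay between the other p16Low libraries. The means were 3.64 ± 0.697 FPKM in p16High and 1.93 ± 0.223 in p16Low (SD, n = 3 each), for a log2 fold change of 0.65 ± 0.18 (SE) and an adjusted p of 0.278, and 0.66 without p16Low replicate 2 (adjusted p = 0.138). Cmpk2, a nucleotide kinase gene 12751 bases away from Rsad2, stood at 10.0, 9.83 and 10.6 FPKM in p16High against 10.7, 4.88 and 10.9 FPKM in p16Low. The low p16Low value of Cmpk2 was replicate 2 alone, and its log2 fold change was 0.25 with that library and -0.08 without it.

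Ifi27l2a (chr12:103442167-103443680, minus strand), a short interferon-induced gene of the ISG12 family, ran the other way. It was at 271, 196 and 233 FPKM in p16High against 331, 541 and 306 FPKM in p16Low. Every p16High library lay below every p16Low library, and p16Low replicate 2 was by far the highest. The mean was 1.68-fold lower in p16High, with a log2 fold change of -0.71 ± 0.22 (SE) and an adjusted p of 0.376. Without p16Low replicate 2 it was 1.37-fold lower, with a log2 fold change of -0.46 ± 0.11 (SE) and an adjusted p of 0.0354 (range over the alternatives 0.0354 to 0.984). Ifi27l2a held 9.63% of all reads on members, behind Ifnar2 with 16.1% and ahead of Bst2 with 8.08%.

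**Figure D1:**
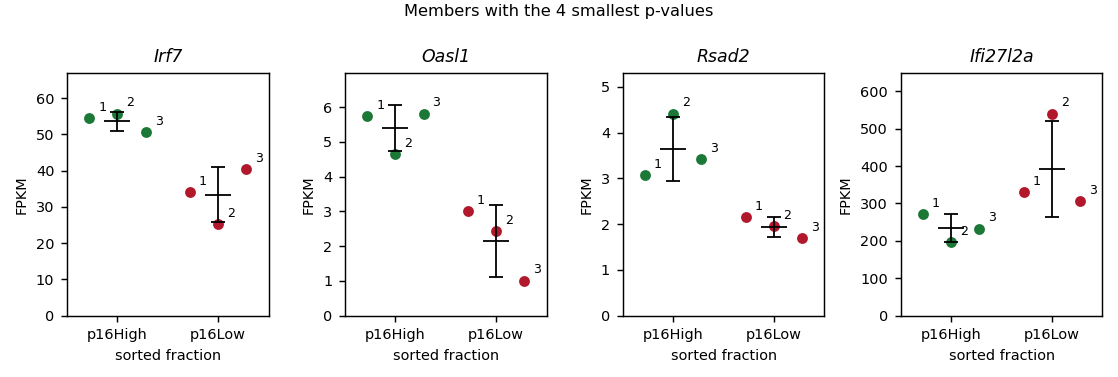
FPKM of Irf7, Oasl1, Rsad2 and Ifi27l2a in the 3 p16High and 3 p16Low libraries (points, numbered by replicate), with the mean and SD of each fraction (lines and bars). In each panel the 2 fractions do not overlap; Irf7, Oasl1 and Rsad2 are higher in p16High and Ifi27l2a is lower.

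The other transcription factors did not separate the fractions. Stat2, a subunit of the complex that binds the ISRE, was at 6.22, 9.60 and 9.98 FPKM in p16High against 8.72, 2.98 and 5.90 FPKM in p16Low. Its log2 fold change was 0.55 ± 0.32 (SE), with an adjusted p of 0.747, and 0.20 without p16Low replicate 2, the lowest library. Irf9, the DNA-binding subunit of that complex, was at 36.5, 36.0 and 35.9 FPKM in p16High against 36.4, 27.1 and 39.2 FPKM in p16Low. Apart from p16Low replicate 2, all Irf9 values lay within a few FPKM of each other, and the log2 fold change was 0.09 with that library and -0.06 without it. Irf1, an early factor induced by both type I and type II interferon, was at 40.6, 49.2 and 41.4 FPKM in p16High against 45.4, 27.0 and 43.0 FPKM in p16Low. Here too only p16Low replicate 2 was low, with a log2 fold change of 0.21 (95% interval -0.26 to 0.68), and -0.02 without that library. Irf3, a constitutive factor activated by phosphorylation, was at 35.0, 32.4 and 28.4 FPKM in p16High against 23.2, 33.3 and 31.3 FPKM in p16Low, a log2 fold change of 0.13 (adjusted p = 0.827), and 0.23 without p16Low replicate 2. Irf7 was the one factor of the 5 whose fractions did not overlap, where 15.9% of all tested genes did not. On a list of other IRF genes and genes of IRF2-binding proteins, none of 7 tested passed the threshold in either fit. The most abundant were Irf2, at a log2 fold change of -0.02 (-0.10 without p16Low replicate 2), and Irf5, at 0.27 (0.11 without it).

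Neither of the 2 receptor subunits passed the threshold, with or without p16Low replicate 2. Ifnar2 was the most abundant member by reads, at 169, 163 and 167 FPKM in p16High against 141, 154 and 140 FPKM in p16Low. All p16High values were above all p16Low values, with a log2 fold change of 0.20 ± 0.11 (SE) and an adjusted p of 0.747, and 0.24 without p16Low replicate 2 (adjusted p = 0.1). Ifnar1 was at 30.0, 43.4 and 42 FPKM in p16High against 34.4, 17.2 and 41.0 FPKM in p16Low. Ifnar1 overlapped between the fractions, and its log2 fold change of 0.38 dropped to 0.01 without p16Low replicate 2. The receptor kinases Jak1 (166 ± 11 in p16High against 137 ± 34.3 FPKM in p16Low) and Tyk2 (8.70 ± 0.425 in p16High against 8.38 ± 3.42 FPKM in p16Low) did not pass the threshold in either fit. The log2 fold change of Jak1 was 0.31, and 0.09 without p16Low replicate 2, and that of Tyk2 was 0.13, and -0.23 without it.

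None of the 6 sensors passed the threshold, with or without p16Low replicate 2. Dhx58, the gene of the RIG-I-like receptor LGP2, was at 28.9, 30.0 and 26.0 FPKM in p16High against 22.5, 18.4 and 25.9 FPKM in p16Low. The fractions of Dhx58 were set apart by less than 0.1 FPKM, and the log2 fold change was 0.34 ± 0.16 (SE), with an adjusted p of 0.723. Ddx58, the gene of RIG-I, was at 16.1, 16.5 and 19.3 FPKM in p16High against 16.9, 9.61 and 14.1 FPKM in p16Low. Ifih1, the gene of MDA5, was at 8.36, 9.10 and 10.6 FPKM in p16High against 8.89, 5.53 and 8.33 FPKM in p16Low. In both of these genes p16Low replicate 1 lay within the range of p16High, and p16Low replicates 3 and 2 lay below it. The lowest library was p16Low replicate 2. The log2 fold change of Ddx58 was 0.36, and 0.15 without that library, and that of Ifih1 was 0.29, and 0.10 without it. Ifi204, a DNA sensor of the IFI200 family, was at 26.3, 28.7 and 29.1 FPKM in p16High against 30.5, 21.2 and 24.2 FPKM in p16Low. Zbp1, a sensor of Z-form nucleic acid, was at 15.5, 15.1 and 20.8 FPKM in p16High against 15.9, 19.4 and 16.9 FPKM in p16Low. Ddx60, a helicase linked to RIG-I signalling, was at 2.77, 2.65 and 3.22 FPKM in p16High against 3.40, 3.53 and 2.18 FPKM in p16Low. These 3 sensors overlapped between the fractions, with log2 fold changes of 0.16 for Ifi204, -0.03 for Zbp1 and -0.04 for Ddx60. These were 0.04, 0.05 and 0.05 in the same order without p16Low replicate 2, and that of Dhx58 was 0.22. Upstream of interferon, 14 further genes of nucleic acid receptors, adaptors and kinases were tested and none passed; 12 had positive fold changes with 6 libraries and 7 without p16Low replicate 2.

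**Figure D2:**
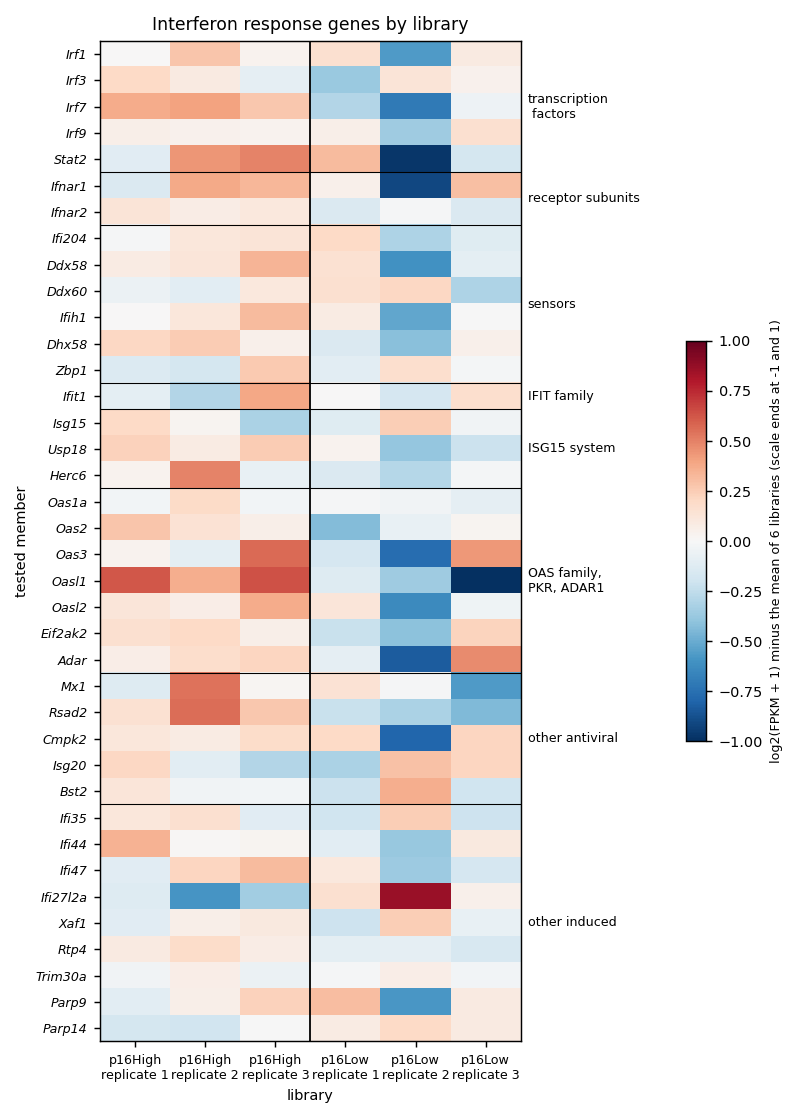
Level of each of the 38 tested members (rows, by role) in each library (columns), as log2(FPKM + 1) minus the mean of the 6 libraries; red is above and blue below that mean, and the colour scale ends at -1 and 1. The column of p16Low replicate 2 holds the darkest blue cells outside Oasl1, among them Stat2, Ifnar1, Adar and Cmpk2, and the dark red cell of Ifi27l2a.

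The IFIT family, whose proteins bind viral RNA, was close to silent. Ifit1 was at 1.11, 0.846 and 1.96 FPKM in p16High against 1.26, 1.01 and 1.53 FPKM in p16Low, a log2 fold change of 0.00 with a 95% interval of -0.50 to 0.50, and -0.08 without p16Low replicate 2. Ifit2 ranged from 0.158 to 0.210 FPKM in p16High and from 0.0212 to 0.336 in p16Low, Ifit3 from 0.382 to 1.17 in p16High and from 0.412 to 1.33 in p16Low, and Ifit3b from 0 to 0.0766 in p16High and from 0 to 0.163 in p16Low. These 3 genes were below the filter and not tested, and reads shared by the near-identical Ifit3 and Ifit3b may have been split or lost. Promoters printed with the ISRE core belonged to genes of very different level. Bst2 averaged 205 ± 13.1 in p16High against 203 ± 49.5 FPKM in p16Low. Ifit1 averaged 1.31 ± 0.582 in p16High against 1.27 ± 0.261 FPKM in p16Low.

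In the ISG15 system, which attaches a ubiquitin-like protein to targets, Isg15 itself was at 10.7, 9.39 and 7.21 FPKM in p16High against 8.38, 11.1 and 8.93 FPKM in p16Low. It overlapped between the fractions, with a log2 fold change of -0.06 (95% interval -0.50 to 0.38), and 0.05 without p16Low replicate 2. Usp18, the protease that removes ISG15 and dampens signalling at IFNAR2, was at 14.7, 13.2 and 15.0 FPKM in p16High against 12.7, 9.26 and 10.5 FPKM in p16Low. The fractions did not overlap, with a log2 fold change of 0.38 ± 0.17 (SE) and an adjusted p of 0.699, and 0.28 without p16Low replicate 2 (adjusted p = 0.439). Herc6, the main ISG15 ligase in mice, was at 3.85, 5.68 and 3.5 FPKM in p16High against 3.30, 2.89 and 3.67 FPKM in p16Low, a log2 fold change of 0.30, and 0.23 without p16Low replicate 2.

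Among the OAS genes, which make the 2′-5′ oligoadenylates that activate RNase L, Oas1a was at 35.4, 41.4 and 35.3 FPKM in p16High against 35.8, 35.2 and 33.8 FPKM in p16Low. It varied little, with a log2 fold change of 0.09 (95% interval -0.21 to 0.40), and 0.10 without p16Low replicate 2. Oasl2 was at 33.4, 32.2 and 39.9 FPKM in p16High against 33.4, 19.3 and 29.8 FPKM in p16Low, and its log2 fold change was 0.37 with p16Low replicate 2 and 0.15 without it. Oas2 (2.88 to 3.5 FPKM in p16High against 1.75 to 2.79 FPKM in p16Low) did not overlap between the fractions, and Oas3 (4.02 to 6.96 FPKM in p16High against 2.18 to 6.26 FPKM in p16Low) did. The log2 fold change of Oas2 was 0.32, and 0.36 without p16Low replicate 2, and that of Oas3 was 0.33, and 0.03 without it. The gene of the RNA-activated kinase PKR, Eif2ak2, was at 10.7, 11.1 and 9.93 FPKM in p16High against 8.02, 6.91 and 11.3 FPKM in p16Low, and Adar, which edits double-stranded RNA, ranged from 8.75 to 9.83 FPKM in p16High and from 4.25 to 11.9 FPKM in p16Low. Both overlapped between the fractions. The log2 fold change of Eif2ak2 was 0.27, and 0.14 without p16Low replicate 2, and that of Adar was 0.30, and -0.04 without it. Of the 7 genes of this group only Oasl1 passed the threshold, and only without p16Low replicate 2.

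Bst2, the gene of tetherin, which holds budding virions on the cell surface, was the most abundant of the 6 genes grouped as other antiviral proteins, at 220, 197 and 199 FPKM in p16High against 174, 261 and 176 FPKM in p16Low. Only p16Low replicate 2 lay above p16High, and the log2 fold change was 0.04 with that library and 0.23 without it (adjusted p = 0.160). Isg20, an exonuclease gene, was at 17.0, 13.5 and 11.8 FPKM in p16High against 11.6, 18.2 and 17.1 FPKM in p16Low and overlapped, with a log2 fold change of -0.13, and -0.01 without p16Low replicate 2. Mx1, a GTPase gene that is defective in C57BL/6 mice, ranged from 1.01 to 2.21 FPKM in p16High and from 0.491 to 1.44 FPKM in p16Low, and Mx2, below the filter, from 0.421 to 1.09 FPKM in p16High and from 0.223 to 0.584 FPKM in p16Low. The log2 fold change of Mx1 was 0.29, and 0.35 without p16Low replicate 2.

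Of the remaining induced genes, Rtp4, which encodes a chaperone-like protein induced by interferon, was at 74.0, 79.0 and 73.1 FPKM in p16High against 64.9, 65.4 and 62.1 FPKM in p16Low. The fractions were tight and did not overlap, with a log2 fold change of 0.23 ± 0.12 (SE) and an adjusted p of 0.737, and 0.24 without p16Low replicate 2 (adjusted p = 0.185). Trim30a, a ubiquitin ligase gene, was at 45.3, 48.9 and 44.7 FPKM in p16High against 46.1, 48.8 and 45.6 FPKM in p16Low, a log2 fold change of -0.02 with a 95% interval of -0.30 to 0.27, and 0.01 without p16Low replicate 2. Ifi47, an interferon-inducible GTPase gene, was at 39.9, 50.2 and 54.0 FPKM in p16High against 46.5, 33.3 and 38.3 FPKM in p16Low, a log2 fold change of 0.28, and 0.17 without p16Low replicate 2. Parp14, an ADP-ribosyltransferase gene, was at 2.46 to 2.93 FPKM in p16High, all below its p16Low libraries at 3.19 to 3.54 FPKM. Its log2 fold change was -0.25, and -0.21 without p16Low replicate 2. Ifi27l2a was the only other member with this order of the fractions, which 7.45% of all tested genes had. Ifi35, Ifi44, Xaf1 (the gene of a protein that binds the apoptosis inhibitor XIAP) and Parp9 overlapped between the fractions, with log2 fold changes of 0.11, 0.26, 0.03 and 0.12 in that order, and of 0.26, 0.13, 0.15 and -0.14 without p16Low replicate 2. Parp9 overlaps Dtx3l on the other strand by 682 bases, and no source used here says whether the counting used strand, so reads in that stretch cannot be told apart.

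Over all 38 tested members, 31 had a positive fold change, where 58.1% of all tested genes did, and the median was 0.24, against 0.05 for all tested genes. Without p16Low replicate 2, 29 were positive, where 45.4% of all tested genes were, and the median was 0.13, against -0.02 for all tested genes. Leaving that library out brought 23 of the 38 fold changes nearer to 0. Signs also changed: Irf1, Irf9, Ifit1, Adar, Cmpk2 and Parp9 turned negative, and Ddx60, Zbp1, Isg15 and Trim30a turned positive. Some of these genes moved further from 0, such as Parp9, from 0.12 to -0.14. The same library was the lowest of the 6 for 19 of the 38 members, where it was lowest for 46.5% of all tested genes. The fractions did not overlap for 10 of the 38, where 15.9% of all tested genes did not: Irf7, Ifnar2, Dhx58, Usp18, Oas2, Oasl1, Rsad2 and Rtp4 were higher in p16High (8.4% of all tested genes), and Ifi27l2a and Parp14 lower (7.45%). The number was 13 without p16Low replicate 2, where it was 29.6% of all tested genes. Of the 5 transcription factors, 5 had a positive fold change with all libraries and 3 without p16Low replicate 2. Their median was 0.21 (the value of Irf1) with all libraries and 0.20 (the value of Stat2) without that library. It was 0.29 and 0.13 for the receptor subunits, 0.22 and 0.08 for the sensors, and 0.25 and 0.14 for the tested effectors. In bulk libraries fewer cells that express a gene and less of its RNA per cell cannot be told apart.

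**Figure D3:**
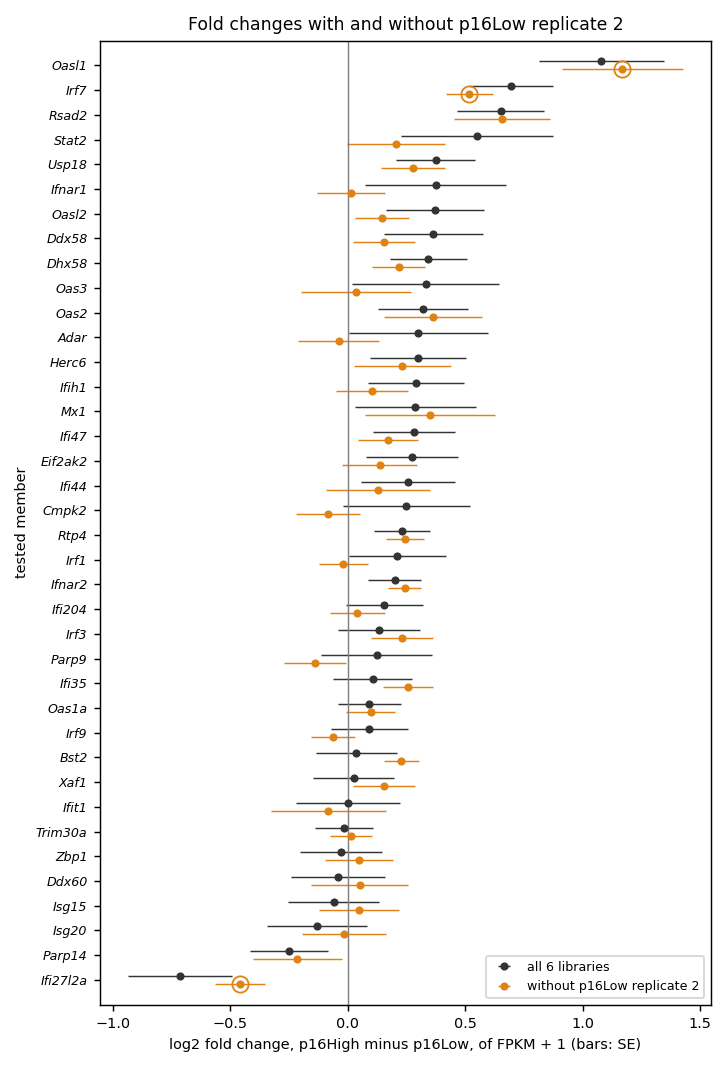
Log2 fold change (p16High minus p16Low, of FPKM + 1) of the 38 tested members with all 6 libraries (black) and without p16Low replicate 2 (orange); bars are the SE, and circles mark an adjusted p under 0.05. Without that library Irf7, Oasl1 and Ifi27l2a are circled, and Stat2, Ifnar1, Adar and Cmpk2 move furthest towards or past 0.

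The level of p16Low replicate 2 relative to the other p16Low libraries varied with transcript length. Among all tested genes, its log2 level minus the mean of p16Low replicates 1 and 3 had a median of 0.34 in the shortest of 5 equal groups by length (up to 960 bases) and of -0.39 in the longest (from 2588 bases). Of the 5 members in the shortest group, Ifi27l2a (463 bases; 0.76), Bst2 (0.57), Isg20 (0.35) and Isg15 (0.32) were high in that library and Usp18 (-0.30) was low. Stat2 (1783 bases; -1.04), Ifnar1 (1790 bases; -1.08), Adar (2625 bases; -1.02) and Cmpk2 (1845 bases; -1.01) were low in it. The 7 members in the longest group had a median of 0.02, where all tested genes had -0.39. Of these, Rsad2 (2800 bases; 0.02), Parp14 (0.11), Ddx60 (0.28) and Oas2 (0.12) were not low. Adar, Ifih1 (-0.56) and Ifit1 (-0.25) were low. Spearman's rho between length and this difference was -0.34 over the 38 members and -0.43 over the 10895 tested genes; genes share the library and are not independent. The part of length in the fold changes of members was not tested.

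**Figure D4:**
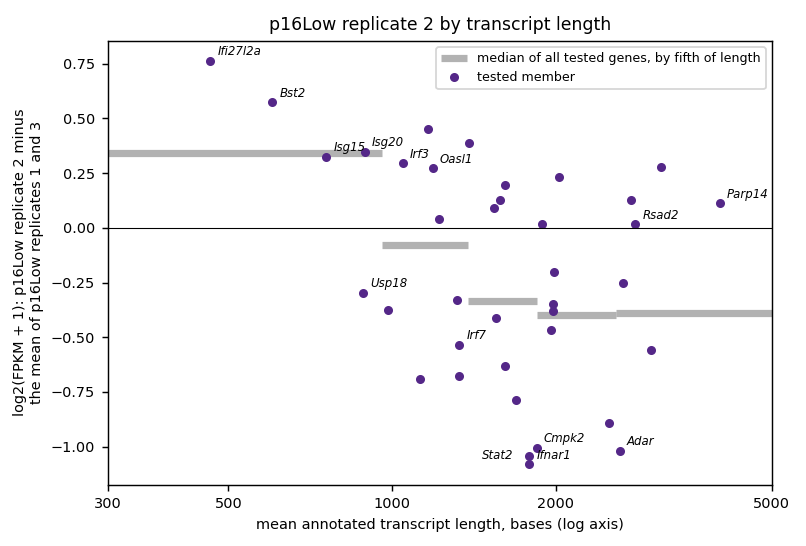
Log2(FPKM + 1) of p16Low replicate 2 minus the mean of p16Low replicates 1 and 3 (vertical axis) against mean annotated transcript length (horizontal log axis) for the 38 tested members (points); grey bars are medians of all tested genes in 5 equal groups by length. Ifi27l2a and Bst2, the shortest members, lie above 0, and Stat2, Ifnar1, Adar and Cmpk2 lie near -1.

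Other interferon-stimulated genes outside the 42 gave no call with 6 libraries. Of 46 tested, 33 had positive fold changes with 6 libraries and 23 without p16Low replicate 2, and the median was 0.09 and -0.02. Ifitm3, an endosomal block to virus entry, averaged 1895 ± 136 in p16High against 2164 ± 346 FPKM in p16Low, and Lgals3bp, a secreted glycoprotein gene, averaged 977 ± 40.3 in p16High against 822 ± 168 FPKM in p16Low. Slfn9, of the Schlafen family, averaged 0.580 ± 0.0742 in p16High against 1.98 ± 0.492 FPKM in p16Low (adjusted p = 0.0853) and was the one gene of the 46 called without p16Low replicate 2, lower in p16High (log2 fold change -1.04; adjusted p = 0.0172), where 1.87% of all tested genes were called lower. Ifi30, a lysosomal thiol reductase gene, averaged 131 ± 2.82 in p16High against 179 ± 33.1 FPKM in p16Low (adjusted p = 0.494), and Ifitm2 averaged 280 ± 21.3 in p16High against 354 ± 40.8 FPKM in p16Low (adjusted p = 0.614). Of 5 tested genes of the IFI200 family 2 had positive fold changes, with Mndal at 47.4 ± 6.87 in p16High against 58.3 ± 8.68 FPKM in p16Low. Ifngr1, the ligand-binding subunit for type II interferon, averaged 234 ± 8.34 in p16High against 198 ± 44.6 FPKM in p16Low (adjusted p = 0.751). In the fit without p16Low replicate 2 the log2 fold changes were -0.05 for Ifitm3, 0.09 for Lgals3bp, -0.29 for Ifi30, -0.24 for Ifitm2, -0.20 for Mndal and 0.06 for Ifngr1, and none of these passed.

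**Figure D5:**
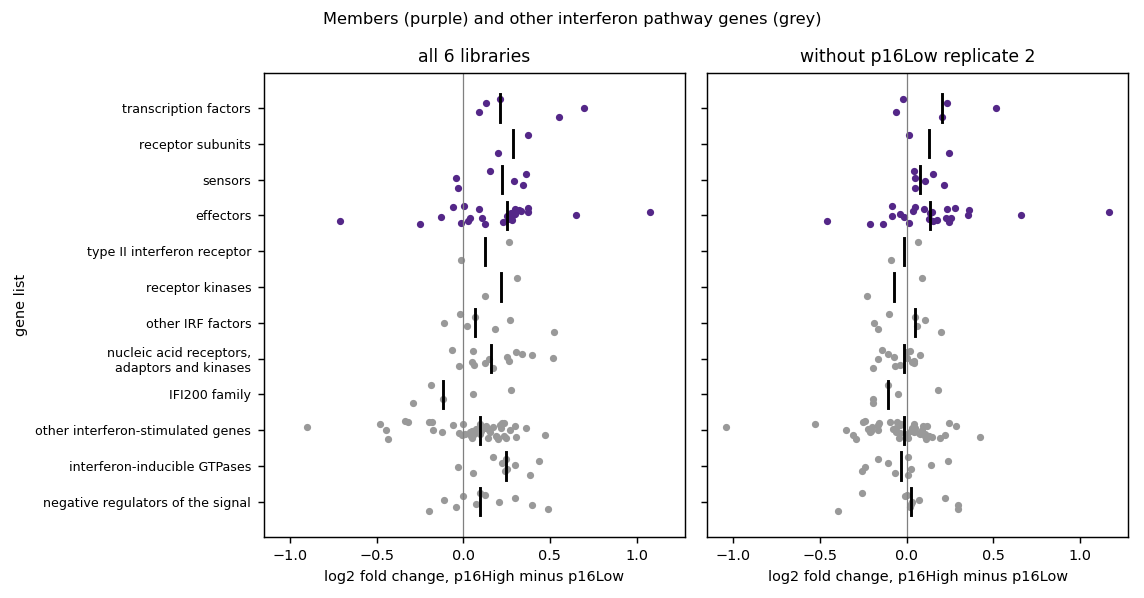
Log2 fold change (p16High minus p16Low, of FPKM + 1) of every tested gene of the 4 roles of the members (purple) and of the other interferon lists (grey), with all 6 libraries on the left and without p16Low replicate 2 on the right; each point is a gene and the black bar is the median of its list. On the right the medians of the grey lists lie between -0.11 and 0.05.

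No gene of the marker lists of other cell types was called with 6 libraries. The summed level of 7 B-cell markers was 136 to 204 FPKM in p16High against 224 to 241 FPKM in p16Low, with 6 of the 7 lower at an unadjusted p under 0.05, where 4.07% of all tested genes were. In the fit without p16Low replicate 2, 2 of the 7 were called lower, Cd79a and Ms4a1, where 1.87% of all tested genes were. With all libraries Cd79a averaged 6.80 ± 1.56 in p16High against 13.1 ± 1.04 FPKM in p16Low, and Ms4a1 averaged 4.38 ± 0.697 in p16High against 8.66 ± 0.882 FPKM in p16Low. The most abundant of the 7 were Igkc (81.9 ± 25.8 in p16High against 122 ± 17.0 FPKM in p16Low), Ighm (28.8 ± 9.08 in p16High against 43.0 ± 5.18 FPKM in p16Low) and Bank1 (30.9 ± 1.42 in p16High against 30.1 ± 4.91 FPKM in p16Low). The 5 markers of small peritoneal and monocyte-derived macrophages summed to 2216 to 2920 FPKM in p16High against 2691 to 4119 FPKM in p16Low, mostly Retnla, with Chil3 at 17.3 ± 2.2 in p16High against 39.5 ± 10.0 FPKM in p16Low. Chil3 and Plac8 of this list were called lower without p16Low replicate 2, where 1.87% of all tested genes were. Markers of T and NK cells summed to at most 0.401 FPKM in any library, with Trac and Ncr1 at 0 in all. Plasmacytoid markers summed to 19.3 to 23.8 FPKM in p16High against 21.4 to 23.3 FPKM in p16Low, nearly all from Tcf4. The part of B cells and of small macrophages in the values of Ifi27l2a, Irf7 and the other members was not tested.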

How the data were processed

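Total RNA of sorted F4/80+ peritoneal cells was sequenced, 3 libraries of p16High and 3 of p16Low. Per gene, the authors deposited FPKM values. The submitters' processing notes name the tools HTSeq 0.6.1, TopHat2 2.0.12 and Bowtie2 2.2.3, with no role or setting. No source used here gives the build; 98.3% of the gene IDs found in GENCODE M21 have the same start and end there, so coordinates are GRCm38. The members and lists were chosen with earlier results of these data known.

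The test was limma 3.58.1 in R 4.3.3 on log2(FPKM + 1) (empirical Bayes with a trend, group as the only term, two-sided, Benjamini-Hochberg over 10895 genes at 0.05), for genes that reached 1 FPKM in at least 3 libraries. Every adjusted p is from limma. A pseudocount of 1 pulls fold changes of low genes towards 0, and the script was tested on simulated data. Ratios are of mean FPKM. Whole reads were recovered from the FPKM values (96.2% of genes above 0 within 0.001 of a read with the annotated mean transcript length, and 100% after a search over lengths) and gave depth and limma-voom. The search took the smallest length that gave whole reads, so its 100% is no check of the recovery. The limit for a count of 0 is 3 reads and covers counting error only. Values are printed per library for the 10 members with the smallest p, the 3 most abundant of each role, and all factors, receptor subunits and sensors. Of the genes on the pathway and marker lists, 2 are not reported here.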

Additional observations from a re-analysis of the deposited data

How the results depend on the processing

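With 6 libraries 97 genes changed over the whole table (19 higher and 78 lower in p16High), 9 with no filter on low values, and 17 to 301 with 1 library left out, the most without p16Low replicate 2. No member passed the threshold under the 8 alternatives of scaling, filter, pseudocount, moderation, voom and block, and 0 to 3 passed with 1 library left out. The median log2 fold change of the members ran from 0.13 to 0.28 over the alternatives, and that of the effectors from 0.136 to 0.243 with 1 library left out (0.25 with all). The labels do not say whether replicate numbers pair the libraries. Deviations of same-numbered libraries from the means of their fractions correlated at -0.19, -0.17 and 0.01. These values cannot decide it, because the deviations of 3 libraries cancel within a fraction and p16Low replicate 2 stood apart. With the replicate block 67 genes changed and 0 members. Members that changed sign with 1 library left out had ranges of log2 fold change of -0.0187 to 0.345 (Irf1), -0.0198 to 0.2317 (Irf3), -0.0625 to 0.1955 (Irf9), -0.2048 to 0.0508 (Ddx60), -0.1701 to 0.0491 (Zbp1), -0.1936 to 0.1469 (Ifit1), -0.1718 to 0.0829 (Isg15), -0.0386 to 0.6102 (Adar), -0.0848 to 0.4216 (Cmpk2), -0.0619 to 0.2286 (Bst2), -0.0698 to 0.1546 (Xaf1), -0.0548 to 0.0137 (Trim30a) and -0.1386 to 0.3097 (Parp9). Of the other alternatives, median-of-ratios scaling gave -0.0182 for Ifit1, -0.0032 for Bst2 and -0.0127 for Xaf1, quantile normalization gave -0.0235 for Xaf1, and Ifit1 was at -0.0213 with a pseudocount of 0.1 and -0.0418 with voom; the cause was not tested. With 3 libraries a fraction and 24 to 129 reads on Oasl1, changes of low members are imprecise. The simulated test recovered 51 of 100 genes changed 2-fold. Its changed genes were drawn only from above a set mean level, with noise independent between genes. It thus gives no recovery for the lowest members and leaves out the shift of p16Low replicate 2 over many genes.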

Other observations

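Interferon-inducible GTPases, which attack the vacuoles of intracellular pathogens and mostly answer type II interferon, gave no call in either fit. Of 10 tested, 9 had positive fold changes with 6 libraries and 5 without p16Low replicate 2, and the median was 0.25 and -0.03, with p16Low replicate 2 the lowest library for all 10. Igtp averaged 22.4 ± 2.53 in p16High against 16.5 ± 3.96 FPKM in p16Low (SD, n = 3 each; adjusted p = 0.714 by limma). Tgtp2 averaged 3.65 ± 0.317 in p16High against 2.82 ± 0.670 FPKM in p16Low. The most abundant were Gbp3, at 135 ± 5.16 in p16High against 115 ± 29.5 FPKM in p16Low, and Gbp2, at 61.9 ± 5.19 in p16High against 64.5 ± 15.9 FPKM in p16Low.

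Of 11 tested genes that restrain interferon signalling, 8 had positive fold changes in each fit and none was called. Trim24, a repressor of the response in mice, averaged 2.71 ± 0.433 in p16High against 1.82 ± 0.387 FPKM in p16Low (adjusted p = 0.723 by limma), and Nlrx1 averaged 4.00 ± 1.03 in p16High against 2.57 ± 0.770 FPKM in p16Low (adjusted p = 0.733). Ptpn2, a phosphatase gene, averaged 17.8 ± 0.653 in p16High against 14.6 ± 4.07 FPKM in p16Low. The phosphatase genes Ptpn6 (295 ± 11.4 in p16High against 273 ± 39.0 FPKM in p16Low) and Ptpn1 (91.2 ± 4.22 in p16High against 91.1 ± 4.14 FPKM in p16Low) were the most abundant of the list.

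Some marker genes of other cells had higher levels in p16High. Cd209a, a lectin gene of dendritic cells and some macrophages, averaged 18.2 ± 4.63 in p16High against 8.36 ± 0.848 FPKM in p16Low (adjusted p = 0.0729 with 6 libraries and 0.00694 without p16Low replicate 2). It was the only tested gene of 6 markers of conventional dendritic cells. Flt3, Xcr1, Clec9a and Itgae averaged 0 to 0.117 FPKM in each fraction, and Zbtb46 averaged 1.33 ± 0.594 in p16High against 0.732 ± 0.0768 FPKM in p16Low. Cma1, a mast cell protease gene, averaged 0.617 ± 0.209 FPKM in p16High and was listed at 0 in all p16Low libraries. All 6 markers of mast cells and eosinophils were below the filter and not tested. Cpa3, Mcpt4 and Fcer1a were also higher in p16High by mean FPKM, Epx was listed at 0 throughout, and Siglecf was lower (0.124 ± 0.107 in p16High against 0.190 ± 0.196 FPKM in p16Low).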
